A study of Mus musculus with 2 samples.

Results

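The 9 miRNA genes described here form a pair of related clusters in the mouse genome, miR-17~92 on chromosome 14 and miR-106b~25 on chromosome 5. They were taken by gene name from 2202 annotated miRNA genes: Mir17, Mir18, Mir19a, Mir20a, Mir19b-1 and Mir92-1 from the first locus and Mir106b, Mir93 and Mir25 from the second. The rule uses no counts, but these clusters were picked with earlier results of the same data known. The samples were 2 small RNA libraries of heart tissue, biological replicates 1 and 2 of 1 group. The mice were male, were 18 to 20 months old and belonged to the strain B6CASTF1/J, the first-generation cross of C57BL/6J with CAST/EiJ, with no treatment or engineered allele named. The labels give the libraries separate biosample records but 1 shared donor record. Whether they came from different animals was therefore not settled, and the spread between them, in each SD given below, may be technical. With 1 group there was no comparison between conditions.

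A miRNA cluster is a run of hairpins that lie close together and are usually cut from 1 primary transcript, so its members share transcription but are processed and decay one by one. A mature miRNA finds its targets mainly through its seed, bases 2 to 8 counted from the 5′ end, and miRNAs with the same seed are grouped as a family. The miR-17~92 cluster is known as an oncogenic cluster that promotes proliferation and, in mice, is needed for heart and lung development. The miR-106b~25 cluster lies in Mcm7, which encodes a subunit of the helicase that unwinds DNA in replication. Members of these families repress, among others, the cell cycle inhibitor Cdkn1a and the pro-apoptotic gene Bcl2l11.

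The mature sequences below show why the 9 genes fall into 4 seed families, with the seed in capitals. They are the main arms by name, from RefSeq on the build GRCm38.p6, and all 9 genes were matched. The count tables give reads per hairpin gene and do not separate the arms, so a family here means the family of the main arm.
Mir17, miR-17-5p: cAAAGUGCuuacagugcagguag
Mir20a, miR-20a-5p: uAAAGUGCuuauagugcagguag
Mir106b, miR-106b-5p: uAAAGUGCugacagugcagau
Mir93, miR-93-5p: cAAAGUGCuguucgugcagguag
Mir18, miR-18a-5p: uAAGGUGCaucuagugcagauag
Mir19a, miR-19a-3p: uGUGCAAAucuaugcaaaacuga
Mir19b-1, miR-19b-3p: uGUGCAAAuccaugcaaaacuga
Mir92-1, miR-92a-3p: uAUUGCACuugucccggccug
Mir25, miR-25-3p: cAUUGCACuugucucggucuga

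The miR-17 family (AAAGUGC) has members in both clusters, Mir17 and Mir20a on chromosome 14 and Mir106b and Mir93 on chromosome 5. Likewise, the miR-92 family (AUUGCAC) is made by Mir92-1 on chromosome 14 and Mir25 on chromosome 5. The seeds of miR-18 (AAGGUGC) and miR-19 (GUGCAAA) come only from chromosome 14 among the 9 genes. Positions are counted from 1 at the 5′ end, with the first-named miRNA's base first. Mir17 and Mir20a differed by C1U and C12U. Mir17 and Mir93 differed at 4 positions in the middle of the miRNA, U10G, A11U, C12U and A13C. Mir19a and Mir19b-1 differed by U11C alone, and Mir92-1 and Mir25 by U1C, C14U and C18U. The main arms were 21 to 23 bases long, so levels of the 9 genes are compared below without a correction for length. Whether each sequence was captured equally well in the libraries was not examined, so an order of levels is an order of counted reads.

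The 6 hairpins of miR-17~92 lie within 836 bases of the plus strand, from 115043671 to 115044506 (chromosome 14, GRCm38). All 6 lie in exon 2 of the noncoding gene Mir17hg. Their order is Mir17 (ENSMUSG00000065508.1, 115043671 to 115043754), Mir18 (ENSMUSG00000065403.1, 115043851 to 115043946), Mir19a (ENSMUSG00000065416.1, 115044000 to 115044081), Mir20a (ENSMUSG00000065442.1, 115044157 to 115044263), Mir19b-1 (ENSMUSG00000076256.1, 115044305 to 115044391) and Mir92-1 (ENSMUSG00000076062.1, 115044427 to 115044506). The gaps between neighbours were 35 to 96 bases. The 3 hairpins of miR-106b~25 lie within 498 bases of the minus strand of chromosome 5, from 138165321 to 138165818. In transcription order they are Mir106b (ENSMUSG00000065514.1, 138165737 to 138165818), Mir93 (ENSMUSG00000065527.1, 138165523 to 138165610) and Mir25 (ENSMUSG00000065394.1, 138165321 to 138165404). All 3 lie in intron 13 of the transcript Mcm7-201, on the same strand as Mcm7. Mir93 and Mir25 also overlap exon 1 of a short transcript of Mcm7.

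Replicate 1 held 3037063 reads in miRNA genes and replicate 2 held 5284446. Levels are given as counts per 1000000 reads in miRNA genes (CPM). A count of 0 allows up to 3 reads, which is 0.988 CPM in replicate 1 and 0.568 in replicate 2. Reads that mapped to more than 1 place were given to no gene, and they numbered 1.27 times the counted reads in replicate 1 and 1.20 times in replicate 2. The unmapped share of all reads was 19.4% in replicate 1 and 34.3% in replicate 2, and the share in miRNA genes was 32.1% and 27.0%. Cardiomyocyte miRNAs (Mir208a, Mir208b and Mir499) took 1.08% and 1.48% of the counted reads, as a check of the tissue label. Of the 6 marker lists summed, the erythroid and epithelial ones had the largest fold differences between the libraries. The 3 erythroid miRNAs (Mir144, Mir451a and Mir486) summed to 8201 CPM in replicate 1 and 2542 in replicate 2. The 7 epithelial ones (Mir200a, Mir200b, Mir200c, Mir141, Mir429, Mir205 and Mir203) summed to 298 and 3874 CPM. The leukocyte list (Mir142, Mir150, Mir155 and Mir223) stood at 6557 and 7238 CPM, and 3 of its 4 genes were higher in replicate 2. The endothelial list (Mir126a and Mir126b) summed to 85244 and 109825 CPM, and the smooth muscle list (Mir143 and Mir145a) to 45692 and 40641 CPM. No gene of the 6 lists was at 0 reads in either library.

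Both clusters were expressed in the old heart, with similar sums of counted reads. The 9 genes held 39771 reads in replicate 1 and 58420 in replicate 2, which was 1.31% (95% Wilson interval 1.30 to 1.32) and 1.11% (1.10 to 1.11) of all counted reads. The miR-106b~25 cluster had 6785 CPM in replicate 1 and 5855 in replicate 2, a mean of 6320 ± 657 (SD, n = 2). The miR-17~92 cluster, with 6 genes in place of 3, had 6311 and 5200 CPM, a mean of 5755 ± 786 (SD, n = 2). Within a library the chromosome 5 cluster had 1.08 times the reads of the chromosome 14 cluster in replicate 1 (exact 95% interval 1.05 to 1.10) and 1.13 times in replicate 2 (1.11 to 1.14). Most reads of the chromosome 14 cluster were counted at Mir92-1. Its hairpin and that of Mir19b-1 each share a whole main arm with another hairpin, and reads within the shared stretch were given to no gene. No hairpin of miR-106b~25 shares such a stretch. The chromosome 14 sum may therefore be too low beside that of chromosome 5, by an amount that was not tested. Without the members whose hairpin shares a stretch of 22 bases with another hairpin, Mir92-1 and Mir19b-1, the mean log2 ratio of chromosome 5 over chromosome 14 was 1.65 in place of 0.14 ± 0.05 (SD, n = 2). With 2 libraries the smallest p of an exact sign-flip test is 0.5, so ratios are given with intervals and no test. These intervals cover counting error only.

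Of the 9 genes, 7 had at least 10 reads in both libraries, as did 14.6% of all 2202 miRNA genes. Their mean levels ran from 80.8 to 4616 CPM, and the 2 miR-19 genes lay far below the rest. Mir93 had the most counted reads of the 9 genes. It had 15020 reads (4946 CPM) in replicate 1 and 22656 reads (4287 CPM) in replicate 2, a mean of 4616 ± 465 (SD, n = 2). It ranked 30 among all miRNA genes by mean level, between the cardiac Mir499 (5523 ± 50.4 CPM) and Mir151 (4553 ± 255 CPM). Ranks are of counted reads, so a gene whose reads mostly mapped to more than 1 place stands too low in them. Mir92-1, whose miR-92a is known for restraining the growth of new vessels, had 13526 reads (4454 CPM) in replicate 1 and 15938 (3016 CPM) in replicate 2. Its mean was 3735 ± 1017 (SD, n = 2), at rank 32, between Mir151 and Mir34a (3675 ± 2276 CPM, from 2066 CPM in replicate 1 to 5285 in replicate 2). These were the leading members of the 2 clusters, and their ranges over the libraries overlapped. Within each library Mir93 had more counted reads than Mir92-1, whose count leaves out reads within the stretch it shares with Mir92-2.

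Mir17, the first hairpin of its cluster, had 3238 reads (1066 CPM) in replicate 1 and 7381 (1397 CPM) in replicate 2, a mean of 1231 ± 234 (SD, n = 2). Mir106b, the first hairpin on chromosome 5, had 3634 reads (1197 CPM) and 5407 reads (1023 CPM), a mean of 1110 ± 123. The ranges of Mir17 and Mir106b overlapped. Mir20a followed at 2135 reads (703 CPM) and 3753 reads (710 CPM), the most even level of the 9 genes over the 2 libraries. Mir25 had 1951 reads (642 CPM) and 2879 reads (545 CPM), a range below that of Mir20a. Mir18, the 1 member of the miR-18 family here with reads, had 262 reads (86.3 CPM) and 398 reads (75.3 CPM). Its lower range did not reach that of Mir25 or of any more abundant member.

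The miR-19 genes were at the limit of detection in the counted reads, which leave out reads that mapped to more than 1 place. Mir19a had 1 read in replicate 1 (0.329 CPM) and 4 in replicate 2 (0.757 CPM). Mir19b-1 had 4 reads in each library (1.32 and 0.757 CPM), and the ranges of these genes touched. Yet they lie between abundant neighbours: Mir20a sits between Mir19a and Mir19b-1 in the same exon. For each read of Mir17 there were 0.000309 reads of Mir19a in replicate 1 (exact 95% interval 7.82e-06 to 0.00172) and 0.000542 in replicate 2 (0.000148 to 0.00139). The miR-19 genes are known as the main oncogenic part of miR-17~92.

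**Figure D1:**
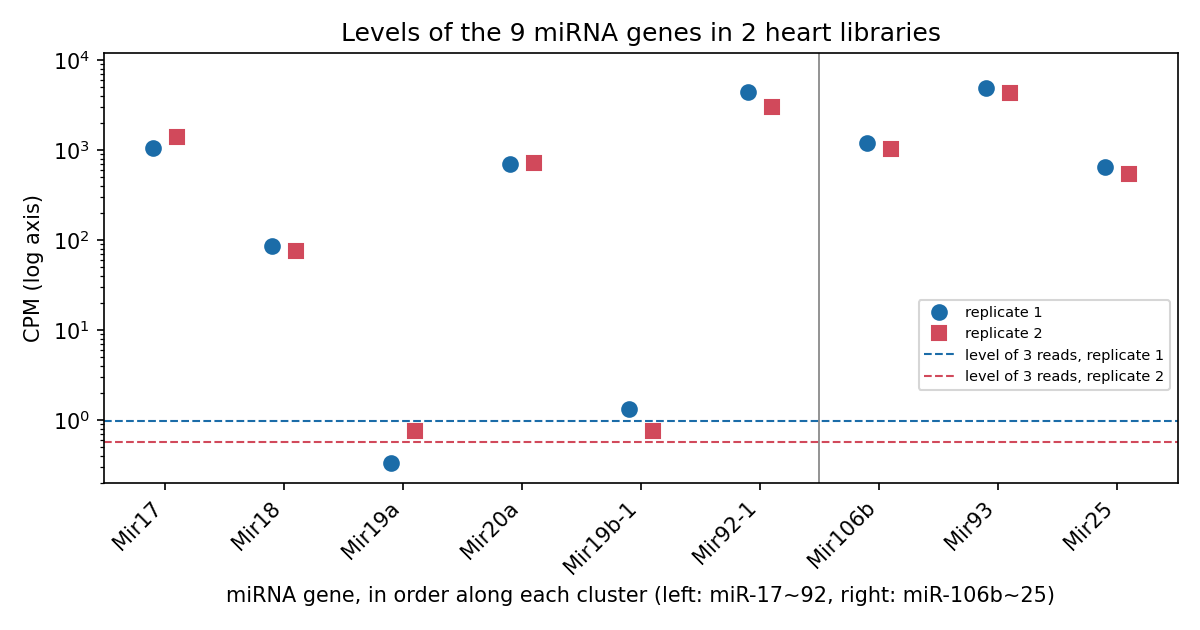
Level in CPM (log axis) of the 9 genes in replicate 1 (circles) and replicate 2 (squares), in order along each cluster, with dashed lines at the level of 3 reads. Mir93 and Mir92-1 stand highest, between 3016 and 4946 CPM, while Mir19a and Mir19b-1 lie at or near the dashed lines.

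Within the chromosome 14 cluster the last hairpin dominated. In replicate 1 Mir92-1 took 70.6% of the cluster's reads, with a 95% Wilson interval of 69.9 to 71.2, and in replicate 2 58.0% (57.4 to 58.6). Mir17 took 16.9% (16.4 to 17.4) and 26.9% (26.3 to 27.4), and Mir20a 11.1% (10.7 to 11.6) and 13.7% (13.3 to 14.1). Mir18 made up 1.37% (1.21 to 1.54) and 1.45% (1.31 to 1.60). The intervals of the 2 libraries did not overlap for Mir17, Mir20a and Mir92-1, and they did for Mir18. These shares leave out reads within the stretch that Mir92-1 shares with Mir92-2. How far that part moved the shares, or differed between the libraries, was not tested.

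On chromosome 5 the middle hairpin dominated. Of the reads of miR-106b~25, 72.9% lay at Mir93 in replicate 1 (Wilson interval 72.3 to 73.5) and 73.2% did so in replicate 2 (72.7 to 73.7). The share of Mir106b was 17.6% (17.1 to 18.2) and 17.5% (17.1 to 17.9), and that of Mir25 was 9.47% (9.08 to 9.88) and 9.30% (8.99 to 9.63). All 3 pairs of intervals overlapped.

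**Figure D2:**
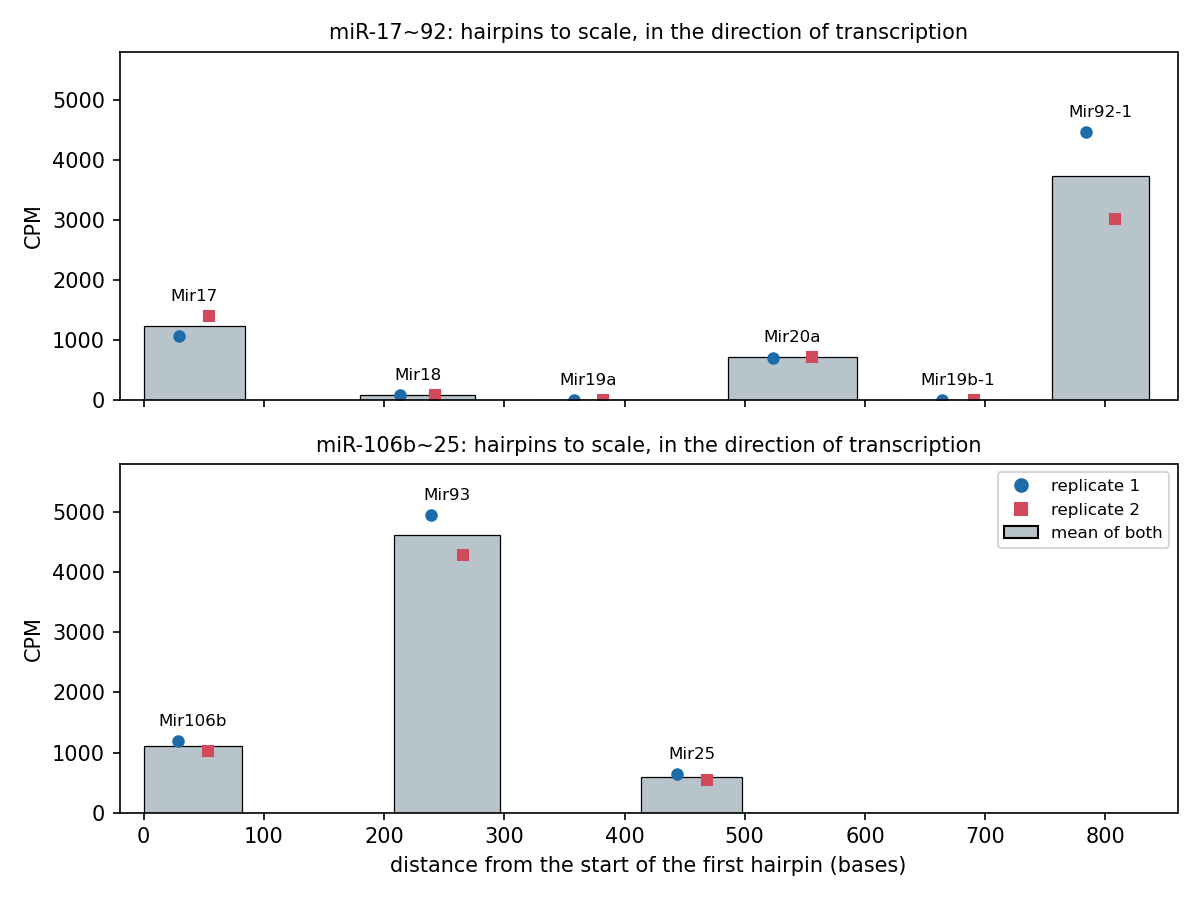
Mean CPM (bars from 0, to the width and position of each hairpin) along both clusters, in the direction of transcription, with distance from the start of the first hairpin in bases and the value of each library as a point. Mir92-1, the last of 6 hairpins, and Mir93, the second of 3, are the tallest bars of their clusters.

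Ratios between members of 1 library need no scaling. Their intervals cover counting error alone, so whether a ratio differs beyond the spread between replicates was not tested. Mir93 exceeded Mir106b 4.13-fold in replicate 1 (exact 95% interval 3.99 to 4.29) and 4.19-fold in replicate 2 (4.07 to 4.32). Mir25 had 0.537 times the reads of Mir106b in replicate 1 (0.508 to 0.567) and 0.532 times in replicate 2 (0.509 to 0.557). The mean log2 ratios were 2.06 ± 0.01 and -0.90 ± 0.01 (SD, n = 2), and in both ratios the intervals of the libraries overlapped.

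On chromosome 14, 3 ratios to Mir17 differed between the 2 libraries by more than counting error. That of Mir92-1 is unlike the rest, since reads within the stretch its hairpin shares with Mir92-2 were given to neither gene. Whether the part left out differed between the libraries was not tested. Mir92-1 exceeded Mir17 4.18-fold in replicate 1 (4.02 to 4.34) and 2.16-fold in replicate 2 (2.10 to 2.22), a mean log2 ratio of 1.59 ± 0.67 (SD, n = 2). Mir20a had 0.659 times the reads of Mir17 in replicate 1 (0.624 to 0.697) and 0.508 times in replicate 2 (0.489 to 0.529). For Mir18 the ratio to Mir17 was 0.0809 (0.0711 to 0.0918) and 0.0539 (0.0486 to 0.0597). None of these 3 pairs of intervals overlapped, while the order Mir92-1, Mir17, Mir20a, Mir18 was the same in both libraries. All 3 ratios have Mir17 below the line, so they are not independent of each other. With the dispersion that edgeR estimated between the libraries, none of the genes in the ratios of either cluster differed in level (adjusted p = 1 for each, exact test of edgeR). That dispersion came from the same 2 libraries, and the test was of single genes. It therefore cannot decide whether the ratios differed.

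Between the libraries, the level of 5 members differed by more than counting error, in different directions. Mir17 was higher in replicate 2, by a log2 ratio of 0.39 (exact 95% interval 0.33 to 0.45; adjusted p = 6.72e-38, exact binomial test, Benjamini-Hochberg over 424 genes). Mir92-1 was higher in replicate 1, with a log2 ratio of replicate 2 over replicate 1 of -0.56 (-0.60 to -0.53; adjusted p = 1.45e-238, exact binomial test). The 3 genes of miR-106b~25 were also higher in replicate 1, by nearly the same amount: -0.23 for Mir106b (-0.29 to -0.16), -0.21 for Mir93 (-0.24 to -0.18) and -0.24 for Mir25 (-0.32 to -0.15). Their adjusted p values in the exact binomial test were 1.90e-12, 1.14e-40 and 9.25e-08. Mir18 had -0.20 (-0.42 to 0.03; adjusted p = 0.149, exact binomial test) and Mir20a 0.01 (-0.06 to 0.09; adjusted p = 0.817), a sign that turned with other scalings. Mir19a and Mir19b-1 had too few reads for the test.

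Differences of this kind were common in these libraries: 52.8% of the 424 genes tested differed, with replicate 2 the higher in 30.9% and replicate 1 in 21.9%. Among the 7 tested members 5 differed. The binomial test calls smaller differences in genes with more reads, and the members and all genes were not matched for reads. The 7 tested members, all with at least 10 reads in both libraries, had a median log2 ratio of -0.21 and a median absolute log2 ratio of 0.23. Over all 321 such genes these values were 0.02 and 0.38, and over the 424 genes tested 0.07 and 0.50. The exact test of edgeR can take the spread between the libraries into account, as a common dispersion over genes. In that test 0 of the 7 members differed (adjusted p = 1 for each), and 0 had an unadjusted p under 0.05, while 2.83% of the genes tested differed. That dispersion comes from the same pair of libraries, so their differences are already counted as spread. The test therefore cannot show that the members did not differ. The summed erythroid markers moved in the direction of Mir92-1 and of miR-106b~25, from 8201 CPM in replicate 1 to 2542 in replicate 2. Of the 3 genes, Mir144 and Mir451a were higher in replicate 1 and Mir486 in replicate 2 (exact binomial test). The summed epithelial markers moved in the direction of Mir17, from 298 to 3874 CPM, where 4 of the 7 genes had their higher level in replicate 2 and 2 had it in replicate 1. The largest epithelial levels in replicate 2 were those of Mir205 (2.30 to 1963 CPM) and Mir200c (82.6 to 1652 CPM). Cardiomyocyte, endothelial and leukocyte sums shared the direction of Mir17 too, and the smooth muscle sum that of Mir92-1. With 2 libraries, any sum that differs must move with Mir17 or with Mir92-1, so these matches single out no list. The unmapped share also differed, 19.4% in replicate 1 and 34.3% in replicate 2. The part of these marker levels and of the unmapped share in the differences was not tested.

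**Figure D3:**
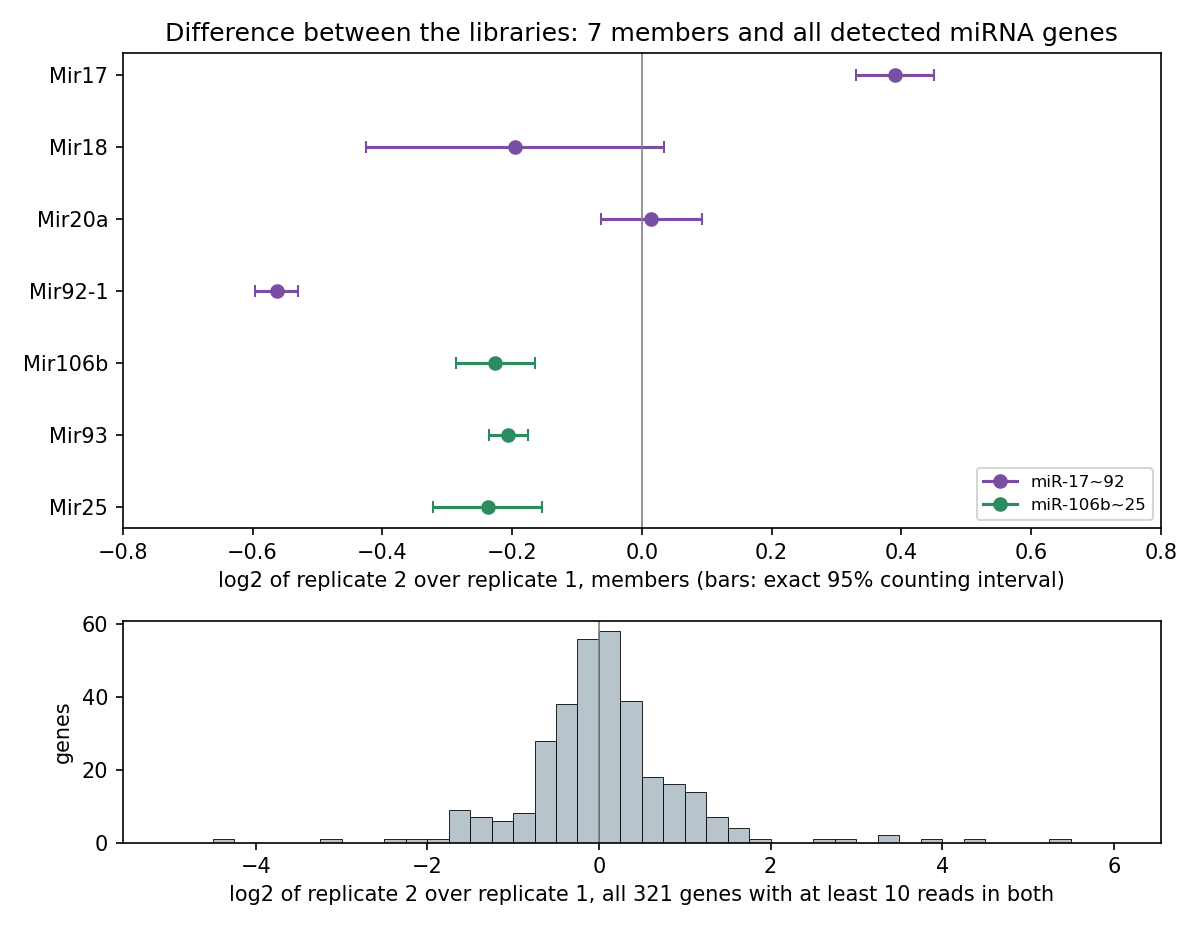
Top, log2 of replicate 2 over replicate 1 for the 7 members with at least 10 reads in both libraries, with exact 95% counting intervals. Bottom, the number of genes by the same ratio over all 321 such genes, on a wider axis. The 3 genes of miR-106b~25 sit together between -0.24 and -0.21, and those of miR-17~92 spread from -0.56 to 0.39.

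By seed, the miR-17 family had the most counted reads, and most of these came from chromosome 5. A read within the stretch that Mir92-1 shares with Mir92-2, or Mir19b-1 with Mir19b-2, was given to no gene. The sums of the miR-92 and miR-19 seeds may therefore be too low, by an amount that was not tested. All genes with the miR-17 seed summed to 7926 CPM in replicate 1 and 7431 in replicate 2, a mean of 7678 ± 350 (SD, n = 2). Mir106b and Mir93 gave 77.5% (Wilson interval 77.0 to 78.0) and 71.5% (71.0 to 71.9) of these reads in replicates 1 and 2. Mir17 and Mir20a gave 22.3% and 28.4%. Within a library, Mir106b and Mir93 together had 3.47 times the reads of Mir17 and Mir20a in replicate 1 (exact 95% interval 3.37 to 3.58) and 2.52 times in replicate 2 (2.47 to 2.58). The direction was the same in both libraries and the intervals did not overlap.

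The miR-92 family was split the other way, with most counted reads from chromosome 14. It summed to 5491 CPM in replicate 1 and 3876 in replicate 2. Mir92-1 gave 81.1% (95% Wilson interval 80.5 to 81.7) and 77.8% (77.2 to 78.4) of it, and Mir25 11.7% (11.2 to 12.2) and 14.1% (13.6 to 14.5). Mir25 had 0.144 times the reads of Mir92-1 in replicate 1 (exact 95% interval 0.137 to 0.151) and 0.181 times in replicate 2 (0.174 to 0.188). The clusters differed in the seed that led their counted reads: the miR-17 seed held most of those of chromosome 5, and the miR-92 seed most of those of chromosome 14. Over both clusters the miR-17 seed took 60.4% and 67.1% of the counted reads and the miR-92 seed 38.9% and 32.2%. The miR-18 seed took 0.659% and 0.681%, and the miR-19 seed 0.0126% (0.00537 to 0.0294) and 0.0137% (0.00694 to 0.0270).

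**Figure D4:**
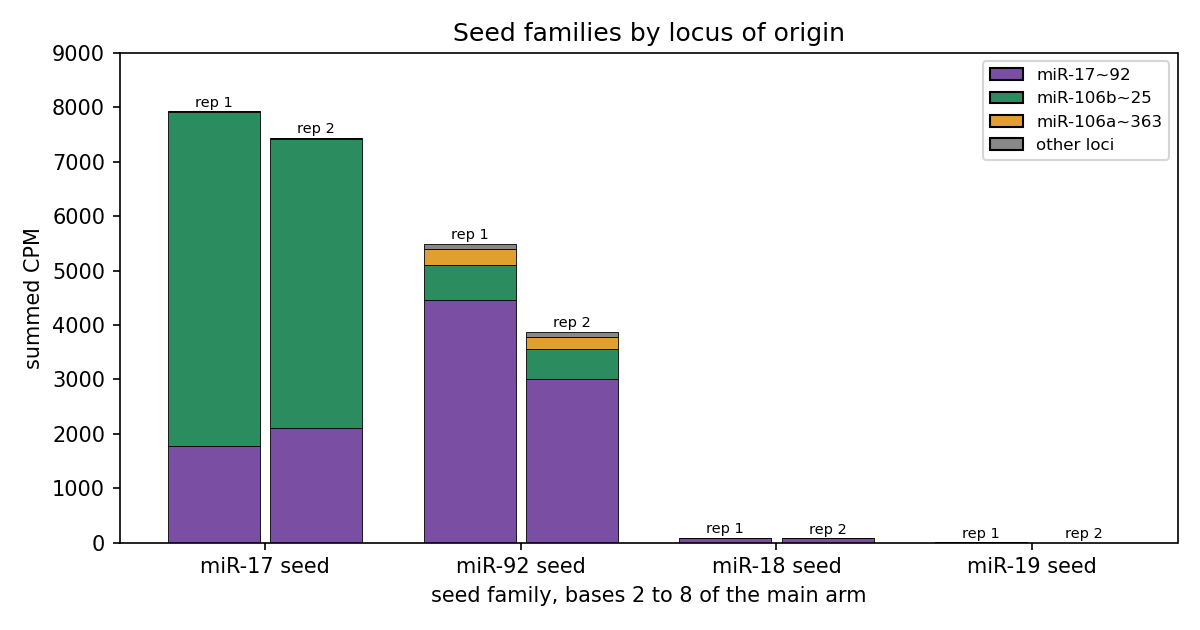
Summed CPM of all genes with each seed in replicates 1 and 2 (bars from 0), coloured by the locus the reads were counted for. The miR-17 seed, at 7926 and 7431 CPM, is mostly from miR-106b~25, and the miR-92 seed, at 5491 and 3876 CPM, mostly from miR-17~92.

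Few reads of these seeds came from elsewhere. The third cluster of the family, Mir106a to Mir363 on chromosome X (minus strand, 52741693 to 52742567), summed to 320 CPM in replicate 1 and 230 in replicate 2 over its 6 genes. Mir92-2, with 906 reads (298 CPM) and 1138 reads (215 CPM), held most of them. Mir106a had 27 and 35 reads, Mir20b 18 and 35, and Mir363 20 and 6, while Mir18b and Mir19b-2 had 0 reads in both libraries. Of the 4 genes tested, Mir92-2 (log2 ratio -0.47, adjusted p = 1.93e-12, exact binomial test) and Mir363 (-2.54, adjusted p = 0.000109, exact binomial test) were higher in replicate 1, and Mir106a and Mir20b were not called. That is 2 of 4 genes, beside 52.8% of all genes tested. The exact test of edgeR called 0 of the 4 (adjusted p = 1 for Mir92-2 and 0.481 for Mir363), and 1, Mir363, had an unadjusted p under 0.05. Outside the 3 clusters, the miR-92 seed had reads at Mir32 (179 and 293, or 58.9 and 55.4 CPM) and Mir92b (94 and 231, or 31.0 and 43.7 CPM). Mir367, with the same seed, and Mir6383, with the miR-17 seed, had 0 reads.

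Mir17, Mir20a and Mir92-1 had far more counted reads than their copies on chromosome X. Mir17 had 120 times the reads of Mir106a in replicate 1 (exact 95% interval 82.3 to 182) and 211 times in replicate 2 (151 to 303), and their main arms differ by U10A alone. Mir20a exceeded Mir20b 119-fold (74.9 to 201) and 107-fold (77.0 to 154). For Mir92-1 and Mir92-2, whose main arms are identical, the ratio of counted reads was 14.9 in replicate 1 (14.0 to 16.0) and 14.0 in replicate 2 (13.2 to 14.9). Reads within the stretch these hairpins share were given to neither gene, so this ratio covers only the rest. It is unlike the ratios of Mir17 to Mir106a and of Mir20a to Mir20b. The other pair with an identical main arm, Mir19b-1 and Mir19b-2, had 4 and 4 reads against 0 and 0, too few for a ratio. The 3 pairs with ratios were added after the values were seen.

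Only Mir19b-1 and Mir92-1 of the 9 genes make a main arm that is found whole in another annotated hairpin, that of the X cluster. The hairpins of these pairs are shown because a read inside the shared stretch cannot be placed at 1 locus. The main arm is in capitals, and the sequences are those of RefSeq on GRCm38.p6, identical to the GENCODE hairpins.
Mir19b-1: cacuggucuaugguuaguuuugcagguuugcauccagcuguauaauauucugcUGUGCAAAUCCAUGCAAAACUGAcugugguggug
Mir19b-2: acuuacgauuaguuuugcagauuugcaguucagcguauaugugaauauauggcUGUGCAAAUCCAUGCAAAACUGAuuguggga
Mir92-1: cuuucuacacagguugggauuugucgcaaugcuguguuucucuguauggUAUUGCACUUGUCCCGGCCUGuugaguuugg
Mir92-2: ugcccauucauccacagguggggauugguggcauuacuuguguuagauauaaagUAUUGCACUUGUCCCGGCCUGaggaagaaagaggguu

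Mir19b-1 and Mir19b-2 share 25 bases, gcugugcaaauccaugcaaaacuga, which run past the 5′ end of the main arm and stop at its 3′ end. Mir92-1 and Mir92-2 share 22 bases, guauugcacuugucccggccug, and the base after the main arm differs between them. The stretch spans the whole main arm in both pairs. Mir92-1 had 13526 and 15938 counted reads, and Mir19b-1 had 4 and 4. Mir19a, with 1 and 4 reads, shares no more than 13 bases in a row with another hairpin, and its main arm differs from that of Mir19b-1 at 1 base. The other 6 members share 13 to 17 bases with another hairpin, and their main arms differ from the nearest other hairpin at 1 to 3 bases. How many reads of miR-19b or miR-92a were left out as mapped to several places was not tested, since that line of the tables names no gene. Copies outside annotated hairpins and CAST/EiJ alleles were not examined. The opposite strand held 0 reads at the 9 genes in both libraries.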

How the data were processed

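Small RNA libraries of 2 heart samples in 1 group were analysed. The authors deposited raw read counts per miRNA gene, on the build mm10 with the annotation M21 of GENCODE, per the text deposited beside the tables. The sources used here name no aligner, counter or trimming step. The sense column (the first single-strand column) was used. Totals and tests left out the 4 summary lines. All 2202 gene IDs matched GENCODE M21.

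CPM were computed per 1000000 reads in miRNA genes. Differences between the libraries were tested by the exact two-sided binomial test per gene (scipy 1.17.1), where a gene had 10 or more reads over the 2 libraries. P values were adjusted by Benjamini-Hochberg over all genes tested, with a threshold of 0.05. They measure differences beyond counting error, not the spread between animals. The binomial test was tried on simulated counts that had counting (Poisson) error only, with no further spread between libraries. There it called 90% of genes raised 2-fold (50 genes) and 2.23% of 224 unchanged genes. That setting meets the assumption of the test, so the 2.23% is not a rate of false calls for the real libraries. The alternative was the exact test of edgeR 4.0.16 with the common dispersion (biological coefficient of variation 40.8%, 321 genes). DESeq2 1.42.0 gave size factors only. Ratios have exact Clopper-Pearson intervals and shares Wilson intervals, at 95%. Without molecular identifiers in the sources, intervals and floors cover counting error only.

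Named genes were the members, the cluster of Mir106a to Mir363 on chromosome X, other genes with a member's seed, and the genes next in level to the leading members. The members and lists were chosen with earlier results of these data known. Mir367 and Mir6383, at 0 reads, were named after their values were seen.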

Additional observations from a re-analysis of the deposited data

How the results depend on the processing

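Under TMM scaling, DESeq2 size factors, a filter of 1 or of 100 reads, and the column for either strand, the same number of members differed between the libraries (5, of which 4 had their higher level in replicate 1 and 1 in replicate 2). The exact test of edgeR, given a common dispersion, called 0 members in either direction. Over all genes it called 12 in place of 224. Of these, 10 had their higher level in replicate 2, against 131 in the exact binomial test, and 2 in replicate 1, against 93. The edgeR test allows for the spread between the libraries, estimated from the same pair that it compares. The log2 ratio of Mir20a, not called in any test, turned to -0.011 under TMM, which the edgeR test also used, and to -0.0044 under DESeq2 size factors, because these scalings moved every ratio by -0.026 and -0.019. Levels scale with the total used, by construction: per 1000000 of all reads of the library, miR-17~92 had 1714 and miR-106b~25 had 1878. Without the 10 most abundant genes in the total, they had 16201 and 17764, and in the column for either strand 7759 and 8520. The log2 ratio of miR-106b~25 over miR-17~92 was 0.10 to 0.17 in single libraries, and 1.65 without Mir19b-1 and Mir92-1. The test between libraries needs both, so no library was left out of it.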
